A study of Mus musculus with 8 samples.

Results

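The mouse chromosome 4 genes measured in the whole retina of aged Mrp4-null and wild-type (WT) mice are described here in the order in which they lie along the chromosome. A member was a gene that the gene table places on chromosome 4 and that at least 1 array probe targets through its transcript accession. After 28 named genes were left out, 1322 of the 22911 genes matched to a probe on the array were members, with 2005 probes. Of these, 988 genes with 1511 probes gave a signal above background and were measured, and 334 genes did not. The chromosome was chosen by the number of probes that differed between the genotypes in these same arrays, so its genotype differences are given below as a description and not as a test of the chromosome.

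The arrays held RNA of whole retina from mice aged 46–55 weeks, 4 samples from Mrp4 knockout mice (Mrp4-null) and 4 from WT mice. The knockout line had a C57BL/6J background, and the methods give no strain for the WT mice. Mrp4, also called Abcc4, encodes an efflux transporter of the cell membrane. Each sample was labelled with Cy3 and hybridized to its own one-colour array. The methods name 3 mice as the source of tissue, and whether a sample pooled mice was not stated, so the spread between arrays may be partly technical. The 8 arrays shared 1 slide, on which one row held the Mrp4-null samples and the other row the WT samples, so slide row and genotype cannot be told apart.

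The targeted gene went against its label. In normalized log2 units, the 4 Mrp4-null arrays measured Abcc4 at 10.84, 10.71, 10.64 and 10.80, and the 4 WT arrays at 6.62, 7.13, 6.54 and 7.02. It was thus higher under the knockout label, by 3.92 on the log2 scale (standard error (SE) 0.14), and the part of the transcript that its probe reads relative to the targeted deletion is not given in the sources used here. Every direction below follows the labels as deposited. Between 66.0% and 69.9% of probes were well above background on each array, and marker genes of rods, cones, bipolar, amacrine and ganglion cells and Müller glia were all measured. Lens markers were measured too, with summed linear signals of 2936–23170 in Mrp4-null and 8293–50110 in WT samples and a median log2 fold change of −1.47. None of the 8 lens markers was called by the rule given below, and the ranges of their sums overlapped between genotypes. The authors' own list, made with a local pooled error test, holds Bfsp1 and Lim2 of these markers as lower in Mrp4-null. Xist, expressed in female cells, was above background on 4 Mrp4-null and 2 WT arrays, and a Y-linked probe on 0 Mrp4-null and 3 WT arrays. The part of lens tissue and of sex in the results below was not tested. In whole tissue, fewer cells of a type and less RNA per cell cannot be told apart.

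Mouse chromosomes are acrocentric, with the centromere at the end where gene order starts. Chromosome 4 carries several gene clusters that arose by duplication, among them the major urinary proteins, the type I interferons, cytochromes P450 of the Cyp4a and Cyp2j families, the Skint genes and, toward the far end, a large array of KRAB zinc finger genes. Genes that lie close together can share regulatory elements and tend to be inherited together.

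Of the 16 called members described below, 15 had a promoter in the RefSeq promoter table (build GRCm38.p6). Under the main setting, Kdf1 and Cort had the highest and Nppb and Snhg3 the lowest log2 fold changes of the 16 called members. For these 4, the 250 bases before the transcription start are shown. They lie at chr4:133518713-133518962 on the plus strand, chr4:149126764-149127013 on the minus strand, chr4:147985650-147985899 on the plus strand and chr4:132353687-132353936 on the minus strand. Capitals mark matches, on either strand, to 6 short motifs: the TATA box TATAAA, the CCAAT box CCAAT, the GC box GGGCGG, the core TAATCC read by the photoreceptor factor CRX, the E-box CACGTG and the cAMP response element TGACGTCA. None of the 6 contains another.
Kdf1: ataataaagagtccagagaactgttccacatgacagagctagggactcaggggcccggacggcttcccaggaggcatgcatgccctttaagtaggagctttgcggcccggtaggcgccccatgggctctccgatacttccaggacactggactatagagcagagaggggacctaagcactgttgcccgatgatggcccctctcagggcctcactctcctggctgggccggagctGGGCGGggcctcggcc
Cort: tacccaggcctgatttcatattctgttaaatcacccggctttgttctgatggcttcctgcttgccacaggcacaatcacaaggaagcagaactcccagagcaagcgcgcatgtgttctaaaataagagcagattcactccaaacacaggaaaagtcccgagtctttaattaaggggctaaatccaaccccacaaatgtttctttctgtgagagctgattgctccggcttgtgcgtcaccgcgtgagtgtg
Nppb: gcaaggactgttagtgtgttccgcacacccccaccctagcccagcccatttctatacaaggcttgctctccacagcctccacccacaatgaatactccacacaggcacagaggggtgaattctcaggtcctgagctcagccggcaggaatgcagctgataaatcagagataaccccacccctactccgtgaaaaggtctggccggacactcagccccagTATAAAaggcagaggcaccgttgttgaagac
Snhg3: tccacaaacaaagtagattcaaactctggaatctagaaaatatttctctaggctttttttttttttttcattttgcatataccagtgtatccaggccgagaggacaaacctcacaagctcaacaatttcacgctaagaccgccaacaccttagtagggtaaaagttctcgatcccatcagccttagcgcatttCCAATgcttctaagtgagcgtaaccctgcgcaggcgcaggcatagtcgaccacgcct

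The Kdf1 window held a GC box that began 16 bases before the start. The Nppb window held a TATA box beginning 31 bases before the start, and the Snhg3 window a CCAAT box beginning 57 bases before it. The Cort window held no match to any of the 6. Over all 32851 promoters, 12.4% of windows of this length held the TATA box, 33.8% the CCAAT box, 32.7% the GC box, 6.25% the CRX core, 6.02% the E-box and 1.55% the cAMP response element. On chromosome 4 the shares of 2053 promoters were 11.1%, 33.9%, 37.1%, 5.70%, 6.04% and 1.02% in the same order. The 15 called genes had 19 promoters, some genes having more than 1. Of these, 11 held a GC box, 6 a CCAAT box, 1 a TATA box, 1 the CRX core, and 0 the E-box or the cAMP response element. The 4 windows shared no motif of this set.

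A probe was called when its fold difference was at least 1.5 and its limma adjusted p was under 0.05 over all 37085 retained probes. By this rule 16 of 1511 member probes (1.06%) were called, against 202 probes or 0.545% over the whole array. These probes belonged to 16 genes. Of them, 8 rose (0.529% of member probes, against 0.256% over all retained probes) and 8 fell (0.529%, against 0.289%). Because the chromosome was selected on these counts, nothing is read from the excess. Leaving out 1 array gave 8 to 14 called probes, with 9 without WT replicate 1, 10 without WT replicate 2, 8 without WT replicate 3 and 8 without WT replicate 4. In each of these WT fits 2 of the called probes fell and the others rose. With no filter on dim probes, 9 were called, of which 7 rose and 2 fell. With the normexp background correction 4 rose and 7 fell. The even split of directions thus depended on the setting. Background correction changed sizes more than directions: with normexp in place of the scanner software's correction, 10 of the 16 called probes had log2 fold changes smaller by over 1.5 times, among them Crybg2 (0.38), Slc2a5 (−0.45) and Hes3 (0.28), whose values under the main setting follow below. Over all members, the median log2 fold change was −0.03, and 42.4% of probes were higher in Mrp4-null samples, beside a median of −0.01 and 46.8% for all retained probes. The bulk of the chromosome therefore lay near 0 and the called genes departed from it in both directions.

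The called genes were not spread along the chromosome. None of the first 650 measured genes was called (65.8% of the 988 measured). All 16 lay between gene 651 and gene 932 in gene order, a stretch of 282 genes that holds 28.5% of the measured genes, and none lay among the last 56. Under the LPE test that the methods name, 2 of 14 called probes lay outside these genes (Penk and Musk). Its p was adjusted here over all retained probes, while the methods name no adjustment, so the rule was stricter than theirs. The stretch is bounded by the called genes themselves, A930031H19Rik at its start and Prdm16 at its end, so its 16 calls are a description of where they lie. The fullest run of 50 genes, from gene 702 to gene 751, held 5 called genes: Crybg2, Slc30a2, Asap3, Hnrnpr and Htr1d. The fullest run held 3 without WT replicate 1, 3 or 4 or with no filter on dim probes, and 6 with an intensity trend. The 7 left-out genes that were called also lay between the first and the last called member. In the share of probes called, chromosome 4 with its left-out genes (28 of 1552 probes, 1.80%) stood beside chromosome 14 (2.92%), which carries Abcc4, and chromosome 8 (3.34%), while the other chromosomes together had 28 of 20080 (0.139%).

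**Figure D1:**
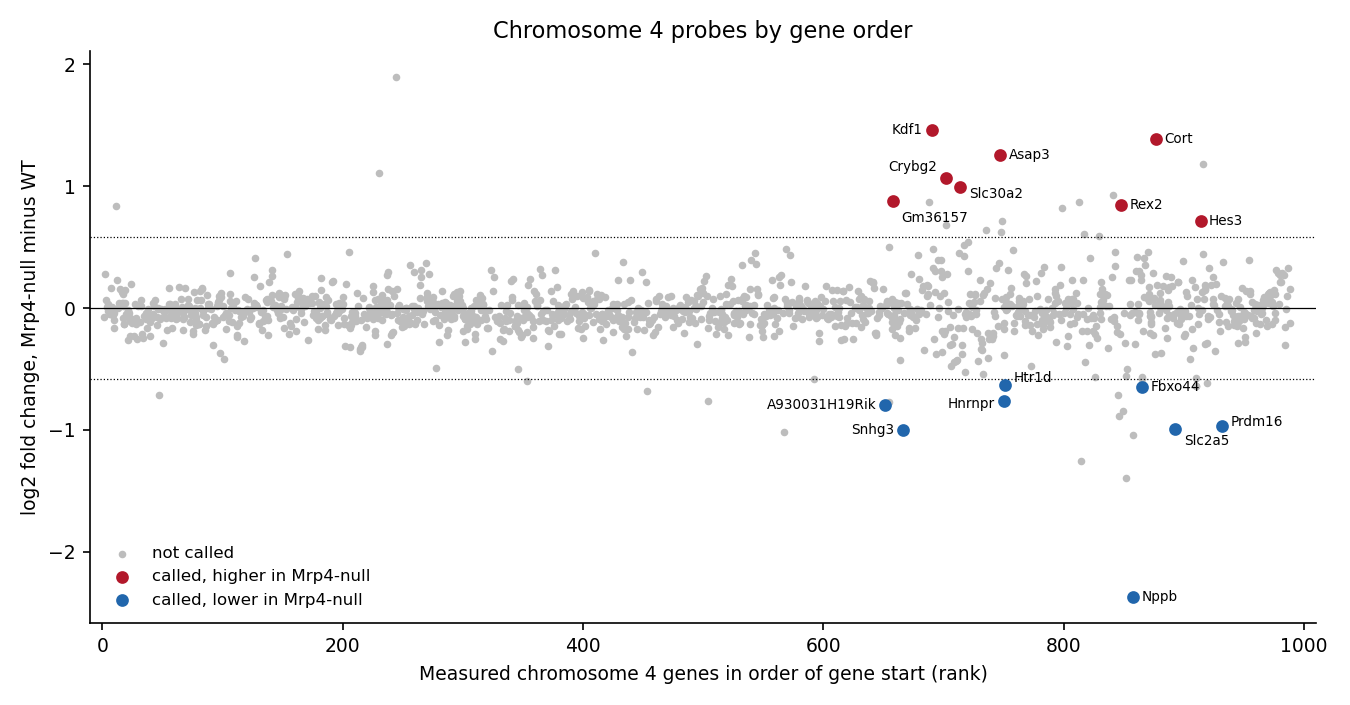
Each point is 1 measured probe of a chromosome 4 gene, placed by the rank of its gene in gene order (x axis) and by its log2 fold change, Mrp4-null minus WT (y axis), with dotted lines at a fold of 1.5. The 8 called probes that rose and the 8 that fell all lie between genes 651 and 932, and 9 probes before that stretch pass the fold without being called.

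Probes that missed the call followed the same outline. A probe was counted as not overlapping when the highest of its 4 arrays in one genotype lay under the lowest of the 4 in the other. This held for 119 member probes (7.88%), 56 higher and 63 lower in Mrp4-null samples, beside 4.79% of all retained probes. Before the stretch it held for 28 of 994 probes (2.82%), within it for 87 of 431 (20.2%) and after it for 4 of 86 (4.65%). With the called probes set aside, 71 of 415 probes within the stretch (17.1%) still did not overlap. The median size of a log2 fold change was 0.08 before, 0.13 within and 0.10 after the stretch. These shares come from the same 8 arrays that chose the chromosome, and are given without a test.

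Within the stretch the non-overlapping probes fell into 2 parts with a quieter interval between them. In consecutive blocks of 50 measured genes, the share was 21.2% in the block from A930031H19Rik to Dhdds and 30.8% in the next, from Lin28a to Hnrnpr. It then dropped to 6.94% in the block from Htr1d to Padi1, where Htr1d, the first gene of the block, was the 1 called gene. The share was 22.4% from 4930515B02Rik to Zfp534 and 20.9% from Zfp984 to Vamp3, and 8.96% in the last block of 88 genes. That block joins the end of the stretch to the 56 genes after it, where the share was 4.65%. In the 13 blocks before A930031H19Rik it ranged from 1.23% to 7.41%. The longest gap between neighbouring called members was 96 measured genes, between Htr1d and Rex2, and spans that quieter block.

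**Figure D2:**
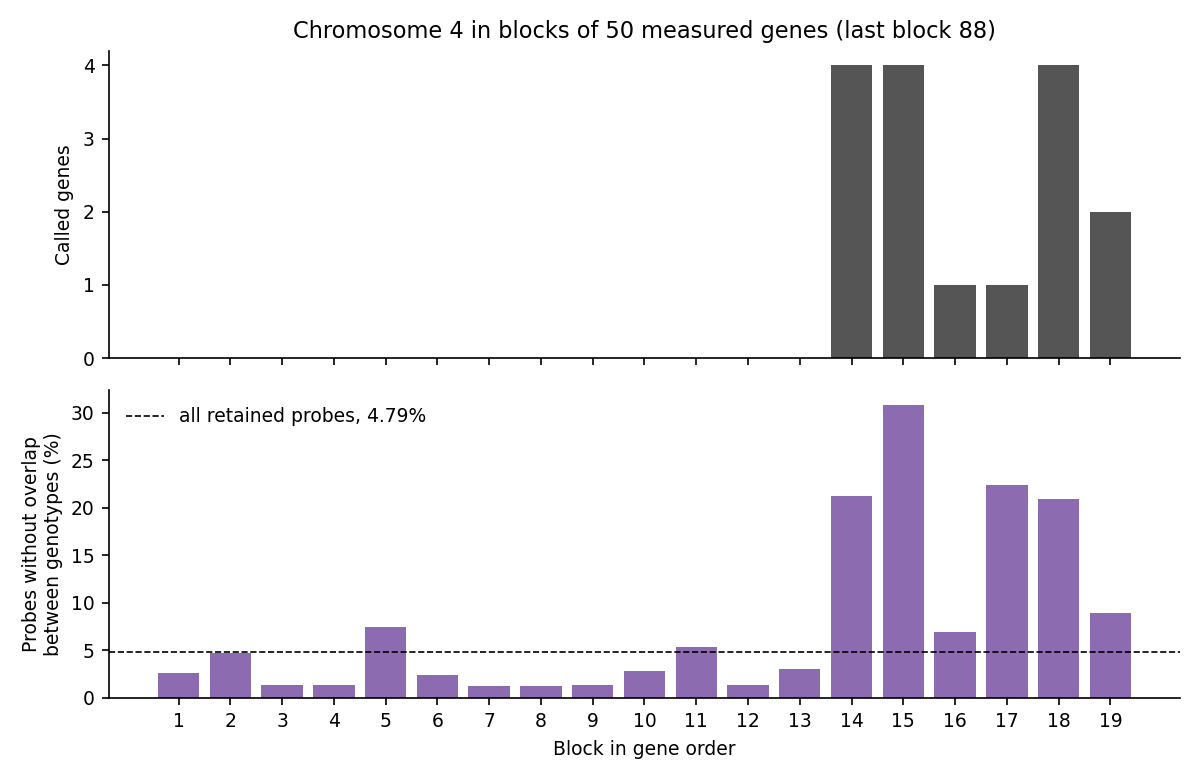
Chromosome 4 in 19 blocks of consecutive measured genes, 50 genes each and 88 in the last (x axis), with the number of called genes above and the percent of probes whose 2 genotypes do not overlap below. Called genes appear from block 14 on, and the dashed line marks the 4.79% of all retained probes.

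Called genes of both directions lay side by side along the stretch. Of the 15 pairs of consecutive called members, 5 had the same sign. The 1 pair of measured members that were both called and directly adjacent in this order was Hnrnpr and Htr1d, and both fell. The 7 called left-out genes are not in the order, so pairs with them are not counted. The 30 measured members next to a called member and not called themselves had 47 probes. Of these, 25 were higher (53.2%, beside 46.8% of all retained probes) and 11 did not overlap (23.4%, beside 4.79%). For the 46 of them that were above background on at least 1 array of each genotype, log2 fold changes ran from −0.85 to 0.63, and 2 reached a fold of 1.5.

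Of the 16 called genes, which are grouped here by known role after the calls were seen, Cort, Nppb and Htr1d act in signalling between cells. Cort encodes cortistatin, a neuropeptide that binds somatostatin receptors. Its signal was 8.50, 8.47, 8.17 and 8.12 on the Mrp4-null arrays and 7.35, 6.87, 6.78 and 6.72 on the WT arrays. All Mrp4-null arrays lay above all WT arrays, and Cort rose by 1.39 on the log2 scale (SE 0.16), from a WT mean of 6.93 ± 0.29 to 8.32 ± 0.20 (SD, n = 4 each). Nppb encodes the precursor of B-type natriuretic peptide, a hormone that acts through a guanylyl cyclase receptor. Its signal was 3.54, 2.64, 4.24 and 4.60 on the Mrp4-null arrays, of which 2 were above background, and 5.84, 6.31, 5.84 and 6.51 on the WT arrays. The groups did not overlap. The log2 fold change was −2.37 with the widest SE of the called members, 0.39, and since the Mrp4-null arrays were partly at background its size is uncertain: it was −0.75 with normexp background correction. The probe was retained through the WT arrays, where it was high. Its call was lost in 6 of the 8 fits that left out 1 array. A second Nppb probe was lower in every Mrp4-null sample, with a log2 fold change of −1.04 (SE 0.23), and was not called. It too was retained through the WT arrays, being above background on 4 WT and 3 Mrp4-null arrays, so its size is uncertain. Nppa, the neighbouring gene for atrial natriuretic peptide, had probes at −0.30 (SE 0.09) and −0.03 (SE 0.13), neither called. Htr1d, a serotonin receptor coupled to inhibitory G proteins, fell by 0.63 (SE 0.10), with 4.58–4.90 in Mrp4-null and 5.22–5.50 in WT samples. That call was lost in all 8 fits that left out 1 array.

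Both called transporters carry small solutes, and they moved in opposite directions. Slc2a5, the fructose transporter GLUT5, measured 5.09, 5.18, 5.36 and 4.95 on the Mrp4-null arrays and 6.21, 6.14, 5.996 and 6.20 on the WT arrays. The WT arrays were all higher, and Slc2a5 fell by 0.99 on the log2 scale (SE 0.10), a call lost with normexp. Slc30a2 encodes ZnT2, which moves zinc out of the cytosol into vesicles. Its signal was 7.04, 7.09, 6.59 and 7.02 on the Mrp4-null arrays and 5.87, 6.25, 5.63 and 6.02 on the WT arrays, with no overlap although Mrp4-null replicate 3 lay apart from the other 3. Slc30a2 rose by 0.99 (SE 0.16), a call lost in 6 of the 8 fits that left out 1 array.

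Of the called regulators of transcription and RNA, Hes3 and Rex2 rose while Prdm16 and Hnrnpr fell. Hes3, a basic helix-loop-helix repressor of the Notch-responsive Hes family, rose by 0.72 (SE 0.10), from 4.66–4.99 in WT to 5.47–5.63 in Mrp4-null samples. Prdm16, a zinc finger factor known for its role in brown fat, fell by 0.97 (SE 0.15), from 7.45–7.71 in WT to 6.17–6.79 in Mrp4-null samples. The groups overlapped for neither gene, though leaving out 1 array cost Hes3 its call in 6 of 8 fits and Prdm16 in 5, and both lost it with the LPE test. Rex2 belongs to the cluster of zinc finger genes toward the end of the chromosome, whose members are so alike that a probe may read more than 1 of them, and its value is uncertain for that reason. Its probe measured 8.06, 7.98, 7.72 and 7.87 on the Mrp4-null arrays and 7.09, 7.05, 7.08 and 7.01 on the WT arrays. It rose by 0.85 (SE 0.09), a call lost with normexp and with the LPE test. Zfp992 and Zfp979, the nearest measured members on either side, had log2 fold changes of −0.21 (SE 0.10) and −0.85 (SE 0.20) and were not called.

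Hnrnpr encodes a ribonucleoprotein that binds nascent and messenger RNA. Its called probe measured 8.87, 8.95, 9.15 and 9.05 on the Mrp4-null arrays and 9.85, 9.76, 9.79 and 9.69 on the WT arrays. The groups did not overlap and the probe fell by 0.77 (SE 0.09). The 4 other Hnrnpr probes had log2 fold changes of −0.38 (SE 0.10), −0.17 (SE 0.20), −0.12 (SE 0.15) and 0.01 (SE 0.07), none called. Only the first of these did not overlap between genotypes, so the fall was called for 1 probe of 5.

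Among the 43 measured long noncoding RNAs of the chromosome 3 were called (6.98%), beside 11 of 926 (1.19%) over all chromosomes. Among 937 protein-coding members 13 were called (1.39%), beside 93 of 14983 (0.621%). As the chromosome was selected on its calls, nothing is read from these shares. Snhg3, which hosts small nucleolar RNAs in its introns, measured 10.36, 11.05, 10.95 and 10.81 on the Mrp4-null arrays and 11.64, 11.72, 11.93 and 11.88 on the WT arrays. The WT arrays were all higher, and Snhg3 fell by 1.00 on the log2 scale (SE 0.15). Snora73a, the next measured gene, had a log2 fold change of −0.04 with an SE of 0.52. Gm36157, with no described function, rose by 0.88 (SE 0.10), from 5.76–5.85 in WT to 6.43–6.85 in Mrp4-null samples. A930031H19Rik, also undescribed, fell by 0.80 (SE 0.13), from 6.04–6.37 in WT to 5.15–5.63 in Mrp4-null samples. For Gm36157 the call held in each of the 8 fits that left out 1 array, for Snhg3 in 2 of them and for A930031H19Rik in 1. The calls of Gm36157 and A930031H19Rik were lost with normexp and with the LPE test.

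The remaining called genes act in epithelia, at membranes and in protein turnover. Kdf1, keratinocyte differentiation factor 1, measured 7.99, 7.83, 7.73 and 7.65 on the Mrp4-null arrays and 6.31, 6.53, 6.07 and 6.43 on the WT arrays. No array overlapped, and Kdf1 had the highest log2 fold change of the called members, 1.46 (SE 0.12). With normexp it was 0.93, under Asap3 (1.20) and Cort (0.99). Its neighbour Nudc, which serves dynein-dependent transport, had 2 probes at 0.48 (SE 0.11) and 0.33 (SE 0.08), neither called although neither overlapped. Trnp1, the nearest measured member on the other side of Kdf1, was at 0.03 (SE 0.09), overlapped and was not called. Asap3, a GTPase-activating protein for Arf proteins, measured 10.16, 9.98, 9.88 and 9.91 on the Mrp4-null arrays and 8.69, 8.70, 8.86 and 8.66 on the WT arrays. It rose by 1.26 (SE 0.09) and had the smallest adjusted p of any member (limma, 0.000436). The nearest measured members on its sides, Id3 and Tcea3, had log2 fold changes of 0.37 (SE 0.08) and 0.63 (SE 0.17), without overlap and not called. Left-out genes, called or not, are missing from this order.

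Crybg2, which carries the beta-gamma crystallin fold outside the lens crystallins proper, measured 5.65, 5.56, 5.65 and 5.85 on the Mrp4-null arrays and 4.75, 4.74, 4.47 and 4.49 on the WT arrays. All Mrp4-null arrays were higher, and it rose by 1.07 (SE 0.10), a call lost with normexp and with the LPE test. A second probe had a log2 fold change of 0.68 (SE 0.17) and was not called. It was above background on 4 Mrp4-null and 2 WT arrays, so its size is uncertain. The third probe gave no signal well above background. Fbxo44, an F-box protein that selects substrates for a ubiquitin ligase, fell by 0.65 (SE 0.10), from 10.53–10.77 in WT to 9.88–10.21 in Mrp4-null samples, and kept its call in 1 of the 8 fits that left out 1 array and not with the LPE test. Its 2 other probes had log2 fold changes of −0.58 (SE 0.18) and −0.56 (SE 0.15), close to the first but not called. The related Fbxo6 and Fbxo2 on either side had values of 0.23 and 0.27 for the 2 Fbxo6 probes and −0.19 for Fbxo2 (SE 0.10 for each), none called.

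**Figure D3:**
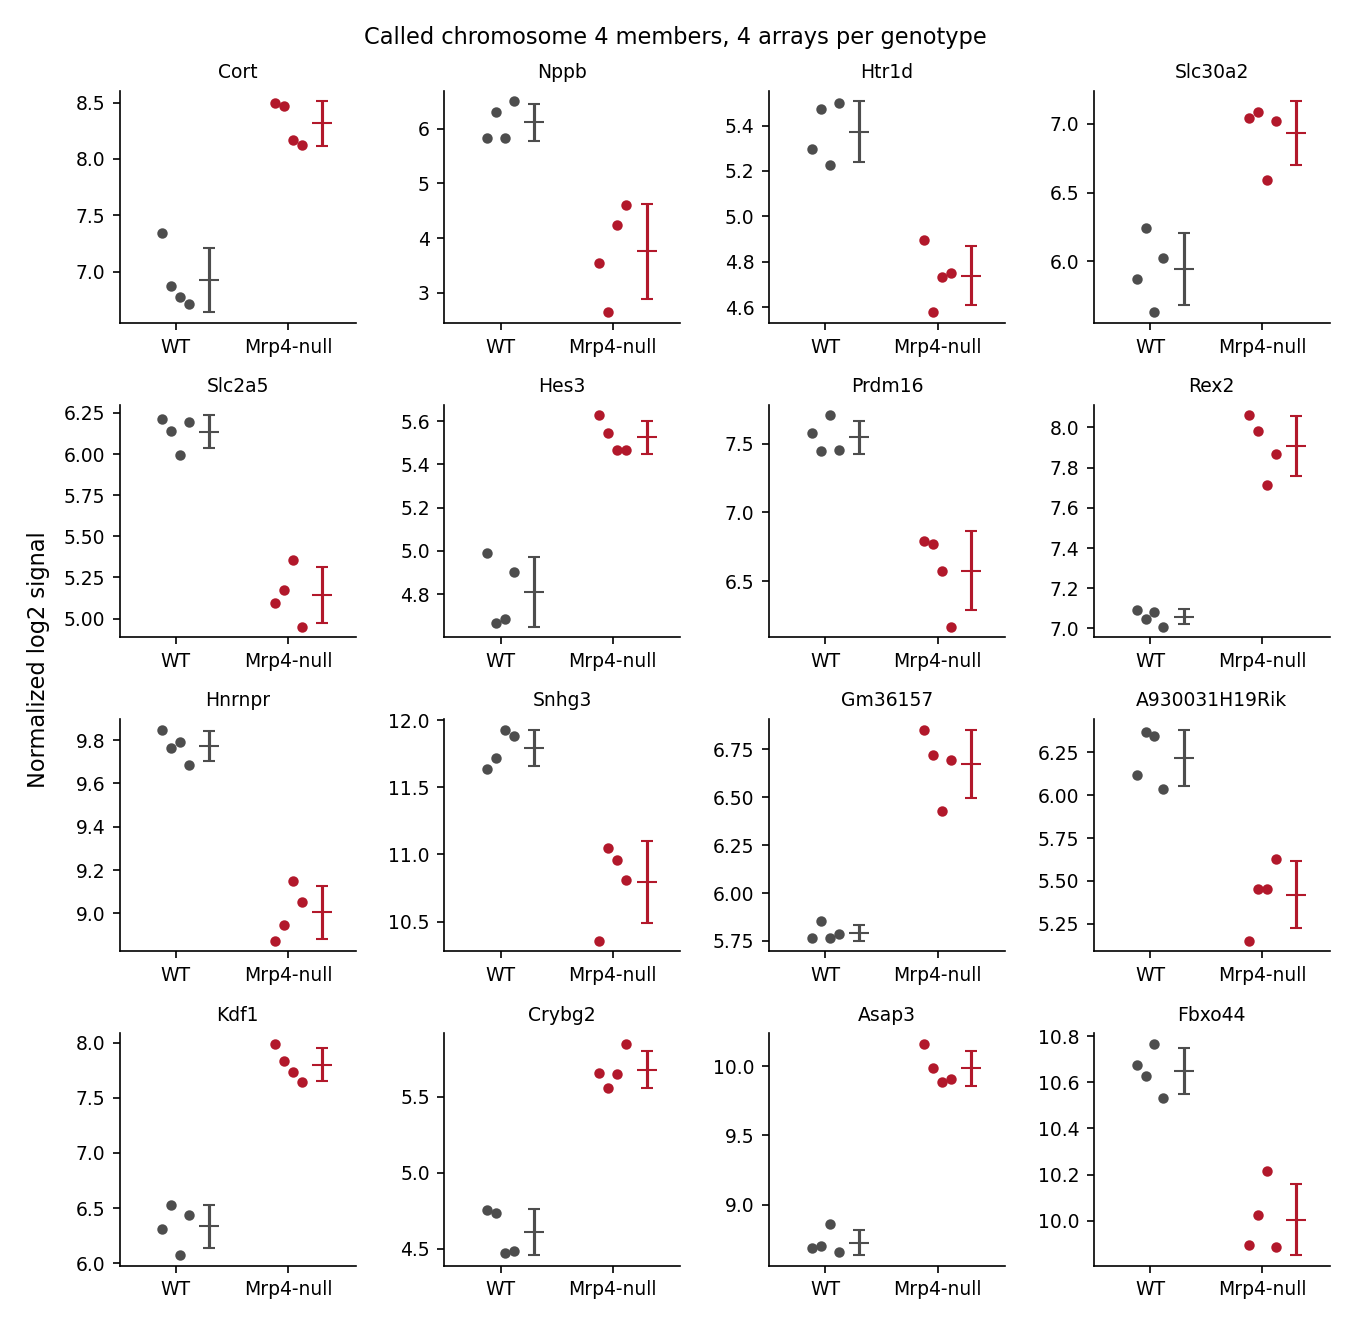
Normalized log2 signal (y axis, own range in each panel) of the 16 called members on the 4 WT and 4 Mrp4-null arrays; points are arrays and the bar beside them is the mean ± SD. In every panel the 2 genotypes are separated, and in the Slc30a2 panel 1 Mrp4-null array lies under the other 3.

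**Figure D4:**
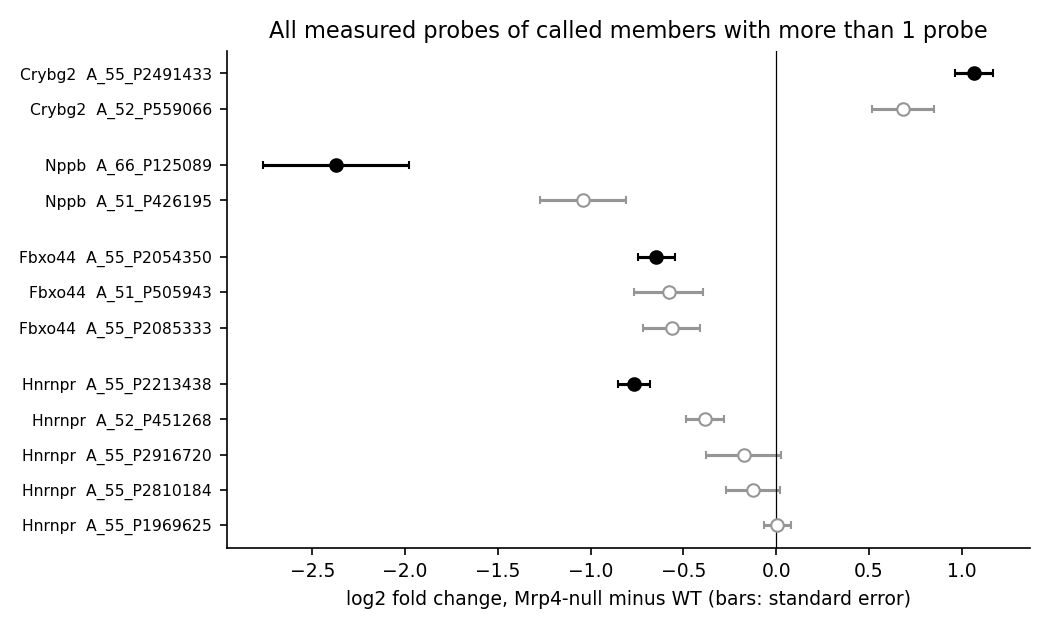
Log2 fold change, Mrp4-null minus WT, of every measured probe of the 4 called members with more than 1 such probe; filled points were called, open points were not, and bars are standard errors. The probes of Crybg2, Nppb and Fbxo44 lie on 1 side of 0, whereas 1 of the 5 Hnrnpr probes reaches −0.77 and another lies at 0.01. The uncalled Crybg2 probe was above background on 2 WT arrays, and the Nppb probes on 2 and 3 Mrp4-null arrays.

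At the thresholds, the called probes closest to the required fold were Htr1d (1.55-fold), Fbxo44 (1.56-fold) and Hes3 (1.64-fold). Paqr7, a membrane progestin receptor, had an adjusted p of 0.0292 in the same limma fit and a fold of 1.44, and was the 1 member kept out by the fold alone. The called probes closest to the adjusted p threshold were Nppb (0.0412), Slc30a2 (0.0338) and Htr1d (0.0327). Just past it were Zfp933 (log2 fold change −1.40, SE 0.25, adjusted p 0.0662), Gm12992 (−0.77, SE 0.14, adjusted p 0.0681) and 1 probe of Zfp46 (adjusted p 0.0795). That Zfp46 probe was above background on 4 Mrp4-null and 0 WT arrays and was at least 1.38-fold higher in Mrp4-null samples, and the second Zfp46 probe had a log2 fold change of 0.07 (SE 0.08). All 4 of these uncalled genes lay within the stretch from gene 651 to gene 932.

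Differences of this size without a call occurred both before and within the stretch. Of the 46 member probes with a fold of at least 1.5, 9 lay before the stretch, 37 within it and 0 after it. In 1 of the 46, the Zfp46 probe, WT had no array above background. The highest log2 fold change of all members was that of Musk, a receptor kinase of the neuromuscular junction, at 1.90, but its SE was 0.86 and its probe was above background on 2 of 4 WT arrays. Tal2, a basic helix-loop-helix factor, had the smallest adjusted p before the stretch, 0.0862 in the limma fit, with a log2 fold change of 1.11 (SE 0.21). Penk, the precursor of enkephalin peptides, was at 0.84 (SE 0.25), and Rspo1, a secreted activator of Wnt signalling, at −1.02 (SE 0.41).

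By family, calls fell in 2 of 16 lists, and since the chromosome was selected on its calls nothing is read from their shares. Of 30 measured genes on a list of chromosome 4 transcription factors, Hes3 rose and Prdm16 fell, 2 of 39 probes (5.13%, beside 0.545% of all retained probes), and the list's median log2 fold change was 0.06. Of 20 measured retinal and neuronal genes, Htr1d was the 1 called, with 1 of 34 probes (2.94%, beside the same 0.545%), and the list's highest was Stmn1, a regulator of microtubules, at 0.52 (SE 0.11). Of the genes with a Zfp symbol, 4 that were called are among the left-out genes (Zfp600, Zfp981, Zfp982 and Zfp985). None of the other 16 that were measured was called, the lowest of them being Zfp933 at −1.40 (SE 0.25), and 6 of their 21 probes did not overlap (28.6%, beside 4.79% of all retained probes). Zfp933 was called with normexp, with the LPE test, with an intensity trend and without Mrp4-null replicate 3, and Zfp46 without Mrp4-null replicate 1. The duplicated families were mostly not measured in retina. Of the major urinary proteins 1 of 11 genes on the array was measured, of the olfactory receptors 2 of 24, of the type I interferons 6 of 16, of the cytochromes P450 5 of 16, of the Skint genes 3 of 11 and of the Pramel and Oog genes 4 of 25. None of their measured members was called, beside 0.545% of all retained probes, and nothing is read from so few probes.

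Housekeeping and receptor families on the chromosome also had 0 called probes, beside 0.545% of all retained probes. Of the 12 measured mitochondrial genes the lowest was Atpif1 at −0.19 (SE 0.13), and the 7 genes of ribosomal proteins and translation factors ranged from −0.15 (Rpl11, SE 0.07) to 0.08 (Rpl22, SE 0.12). Of these genes 4 and 3, respectively, lay within the stretch. The 5 Eph receptors ranged from −0.19 to 0.26, both ends being probes of Epha10. The 4 measured TNF receptors lay between 0.04 (Tnfrsf14, SE 0.19) and 0.39 (Tnfrsf9, SE 0.24), the 4 secreted phospholipases A2 between −0.22 (Pla2g2c, SE 0.09) and 0.29 (Pla2g2d, SE 0.15), and the 2 peptidylarginine deiminases between −0.04 (Padi1, SE 0.12) and 0.00 (Padi2, SE 0.14). Gja4, the 1 measured connexin gene, was at 0.06 (SE 0.18). Genes of these families that lay inside the stretch, such as the peptidylarginine deiminases, were measured there without a call. With so few probes, nothing is read from these counts.

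The array also held 278 probes that are named by chromosome 4 coordinates in the mouse build mm9 and carry no gene. Of these, 159 were retained and 1 was called, beside 0.545% of all retained probes, and nothing is read from this count. It covers chr4:142937279-142937669 (mm9), read on the reverse strand, and rose by 1.70 on the log2 scale (SE 0.19), from a WT mean of 3.83 to 5.53. It was above background on 4 Mrp4-null and 2 WT arrays, so the size of the rise is uncertain. Its place among the ordered genes is not given, since the gene order comes from a later build.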

How the data were processed

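Whole-retina RNA of 4 Mrp4-null and 4 WT samples was measured on one-colour Agilent SurePrint G3 Mouse 8x60K v2 arrays. The authors deposited scanner files with the spot intensity, background-subtracted and spatially detrended by Agilent Feature Extraction 11.0.1.1 (submitters' files), together with flags for other spot properties. They also deposited a table of linear intensity that equals the mean processed intensity of a probe's spots. The authors' methods filtered flagged probes, took logarithms, applied quantile normalization and used a fold of 1.5 with the local pooled error (LPE) test.

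Here spots marked as outliers (78–143 per array) were left out, spots of a probe averaged, and log2 signals quantile-normalized. A probe was retained where well above background on every array of at least 1 genotype (37085 of 56605 probes). The genotypes were compared by limma 3.58.1 in R 4.3.3 with Benjamini-Hochberg adjustment over all retained probes, in place of LPE. The LPE test was rewritten here and run as an alternative with the same adjustment, which the methods do not name for it. Both were tested on simulated data. Groups follow the labels. The p-values measure only the spread between these samples. The number of arrays limits the precision. Accessions were matched to a RefSeq gene table of build GRCm38.p6, used only for gene order, since the array follows mm9. Figures were drawn with matplotlib 3.10.9.

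The members and lists were chosen with earlier results of these data known. Named genes were every called member with all its retained probes, its measured neighbours as counts and ranges, the probes nearest to each threshold, and the ends of each list. Neighbours given singly, and Musk, Penk and Rspo1, were named after their values were seen. Alternatives covered normalization, background, filter, outlier spots, input, test, block, thresholds, probes per gene, run length and each array left out.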

Additional observations from a re-analysis of the deposited data

Results flagged for a closer look

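Among the 32 groups formed by the 16 called probes and 2 genotypes, 1 held a sample far from the others: Slc30a2 in Mrp4-null. Replicate 3 measured 6.59, the nearest other array 7.02 and the highest 7.09, so the gap took up 0.867 of the group's range, above Dixon's critical value for 4 arrays. About 1 in 20 groups passes this value by chance. Replicate 3 still lay above every WT array.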

How the results depend on the processing

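None of the 16 called probes reversed direction under any setting run. The 16 called probes (16 genes, 5 in the fullest run of 50) became 12 with a 75th percentile shift, 15 with cyclic loess, 11 with normexp background correction (9 of the 16 among them), 15 with a stricter filter, 15 with an intensity trend, 14 with LPE (8 of the 16 among them) and 16 with outlier spots kept or with the deposited table. Without the filter on dim probes, which adds features to the adjustment, 9 probes in 9 genes and 3 in the fullest run were called. With normexp the log2 fold changes of the called probes shrank by 1.03 to 3.17 times, to −0.75 for Nppb, 0.38 for Crybg2, 0.28 for Hes3, −0.26 for Htr1d, −0.45 for Slc2a5, −0.37 for A930031H19Rik, 0.54 for Gm36157, 0.93 for Kdf1, −0.62 for Prdm16 and 0.66 for Slc30a2. A fold threshold with no test gave 46 probes in 43 genes and 11 in the fullest run. Runs of 25 and of 100 genes held 3 and 8 called genes. Leaving out 1 array gave 8 to 14 probes, 8 to 14 genes and 3 to 5 genes in the fullest run, and 8 of the 16 members kept their call in all 8 such fits (Kdf1, Cort, Asap3, Crybg2, Gm36157, Rex2, Slc2a5 and Hnrnpr). Htr1d lost it in all 8. Of the others, Snhg3 kept it only without Mrp4-null replicate 1 or 2, Slc30a2 only without Mrp4-null replicate 3 or WT replicate 2, Nppb only without Mrp4-null replicate 2 or 4, Hes3 only without Mrp4-null replicate 2 or WT replicate 1, Fbxo44 only without Mrp4-null replicate 3, A930031H19Rik only without Mrp4-null replicate 4, and Prdm16 without Mrp4-null replicate 1, 2 or 4. Kdf1, Asap3 and Cort were called under all 18 alternative settings with a test. Under LPE 2 called probes lay outside genes 651 to 932 (Penk and Musk), and under the fold alone 9 did; under the other settings 0 did. Calls lost with LPE were A930031H19Rik, Gm36157, Crybg2, Htr1d, Rex2, Fbxo44, Hes3 and Prdm16, and with normexp A930031H19Rik, Gm36157, Crybg2, Htr1d, Rex2, Slc2a5 and Hes3. Calls gained with LPE were Penk, Rnf207, Rcc2, Zfp933, Srarp and Musk, and with normexp Zfp933 and Gm12992.

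A replicate block on the sample number gave 4 called probes in 4 genes, 2 of them in the fullest run: Kdf1, Slc30a2, Asap3 and Cort. The samples share only a number, since deviations of same-numbered arrays correlated at −0.29, −0.685, 0.0345 and 0.409, and 1 of 8 arrays matched its own number best. The causes of these changes were not tested. The genes not measured (334) were limited by signal over background.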
